A study of Mus musculus with 2 samples.

Results

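The chemokine receptor genes Cx3cr1, Ccr1, Ccr2, Cxcr2 and Cxcr4 were followed across brain isolates of mice with a normal or an impaired Disc1 gene. They were taken by their symbols, as 5 of the 32285 genes of the count matrices, by a rule that uses names and no measured value. The animals were littermates of 23 weeks, either wild type (Disc1 WT/WT, hereafter WT/WT) or homozygous for the LI allele (Disc1 LI/LI, hereafter LI/LI), an impaired locus that acts like a knockout. The series design gives them as male, although the study's methods name mice of either sex for its experiments as a whole. Brains of 6 mice per genotype were pooled, dissociated with actinomycin D to halt transcription, and sorted for CD45 low, CD11b+ cells, and each pool gave 1 single-cell library. No Cx3cr1 reporter allele is named for these animals. A single library stands for each genotype, so replicate spread is unknown and genotypes could not be tested against each other. The 95% intervals given here cover counting error only.

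Chemokine receptors are membrane proteins that couple to inhibitory G proteins and steer leukocytes along gradients of small secreted proteins. Cx3cr1 binds the neuronal ligand fractalkine and is a hallmark of microglia, with a lower level on monocytes, above all the patrolling, nonclassical kind. Ccr2 binds the monocyte attractant Ccl2 and lets classical monocytes leave the bone marrow, Ccr1 binds several inflammatory CC chemokines on neutrophils, monocytes and macrophages, Cxcr2 draws mature neutrophils toward Cxcl1 and Cxcl2, and Cxcr4 binds Cxcl12 and holds neutrophils and progenitors in the marrow. During neutrophil maturation the granule protein genes are used first and switched off later, while Cxcr2 comes on late.

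Barcodes that held 200 genes or more and no more than 10% of UMIs (unique molecular identifiers, each counting 1 captured transcript) from mitochondria were sorted into classes that do not use the receptors. Microglia had at least 0.5% of their UMIs from P2ry12, Gpr34, Tmem119, Siglech, Fcrls and Olfml3 and under 1% from S100a8 and S100a9. Neutrophils had at least 3% from the S100 pair and were called granule-rich where Ngp, Camp and Ltf, genes of secondary granules and their precursors, gave at least 1% of UMIs, and granule-poor otherwise. All remaining barcodes were pooled as other cells. Levels are UMIs of a gene per 1000000 UMIs of all cells of a class together (CPM).

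Both libraries carried the label microglia, but their make-up differed. Of 7032 cells in WT/WT, 87.9% were microglia, 0.711% granule-rich neutrophils, 0.939% granule-poor neutrophils and 10.5% other cells. Of 7817 cells in LI/LI, these shares were 24.9%, 20.9%, 25.5% and 28.7%. The classes bore out their names, since microglia held the microglial gene Sall1 (319 and 227 CPM in WT/WT and LI/LI), and granule-rich neutrophils held Ly6g (847 and 858). Median depth was 4234 and 4566 UMIs per cell, 12 barcode sequences occurred in both libraries, and Disc1 itself was counted 642 times in the former and 22 times in the latter library. Neutrophil RNA was counted in microglia as well, since 12.2% of WT/WT microglia and 91.9% of LI/LI microglia had a UMI of S100a8 or S100a9. For this reason levels in cells that should lack a receptor are given beside the results.

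The class with the highest level of a receptor was the same in both libraries. Cx3cr1 was highest in microglia, Ccr1 and Cxcr2 in granule-poor neutrophils, and Ccr2 in the other cells. Cxcr4 was highest in granule-poor neutrophils, with counting intervals that overlapped those of the other cells in both libraries.

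**Figure D1:**
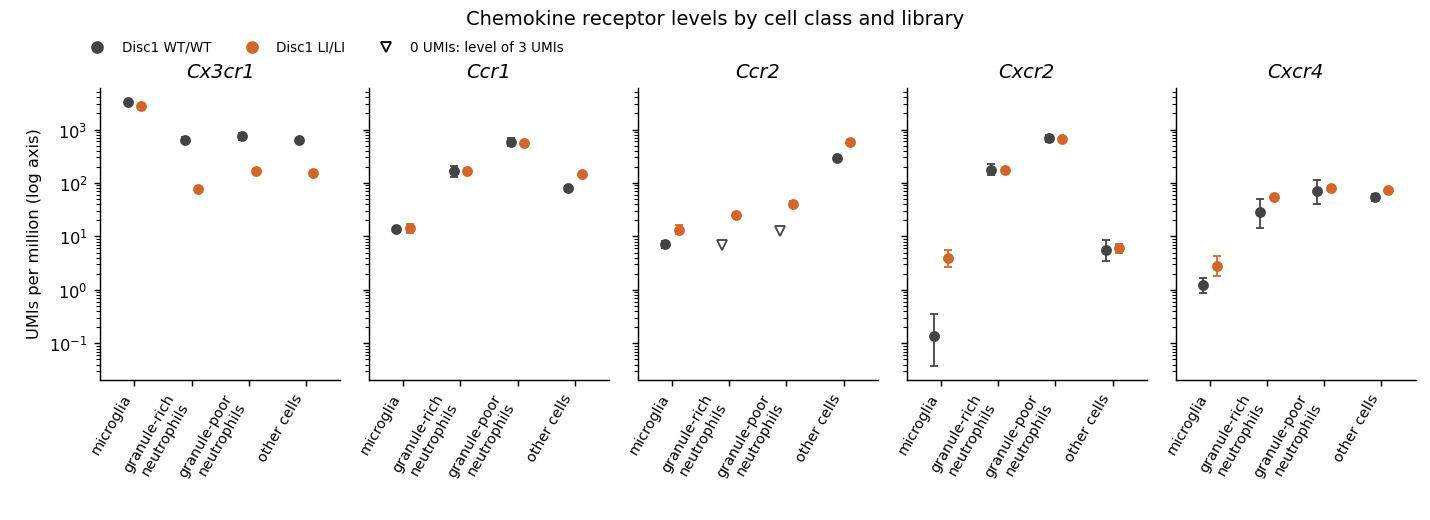
The level of each receptor in CPM (log axis) is plotted for 4 cell classes, with 1 point per library and bars for the 95% Poisson interval. Open triangles stand at the level that 3 UMIs would give where none was counted. Cxcr2 and Ccr1 lie at nearly the same height in neutrophils of both libraries, while Cx3cr1 in neutrophils and other cells lies 4.12-fold to 8.26-fold lower in LI/LI.

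Cx3cr1 was measured at 3301 CPM (3280 to 3321) in 6180 WT/WT microglia and at 2811 (2774 to 2847) in 1950 LI/LI microglia. Nearly every microglial cell held it, with at least 1 UMI in 98.2% of WT/WT cells (median depth 4271 UMIs) and 97.3% of LI/LI cells (3788 UMIs). The log2 ratio of LI/LI to WT/WT was -0.23 (-0.25 to -0.21). This was a small difference that 46.5% of the 12249 genes tested fell below, and the median log2 ratio of all those genes was -0.19, so Cx3cr1 stood near the middle of the shift that microglia of the 2 libraries showed as a whole. Scaling by TMM (trimmed mean of M values), which moved every microglial log2 ratio by 0.13, left it at -0.10.

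Within microglia, Cx3cr1 was higher where other microglial RNA was more abundant. Cells were binned by the percent of UMIs from the 6 microglial genes of the class rule. In WT/WT it was 2750 CPM where that share was 0.5 to 1%, 3499 at 1 to 1.5%, 3652 at 1.5 to 2% and 3576 at 2% or more. In LI/LI the same bins had 2362, 3069, 3398 and 3743, the last over 16 cells only. The LI/LI value was thus the lower of the pair in 3 of the 4 bins, and in the last bin its interval (3175 to 4383) held the WT/WT value. With each cell thinned to 1000 UMIs, microglia had a mean of 3.24 Cx3cr1 UMIs (SD over cells 2.14, n = 6076 cells) in WT/WT and 2.84 (SD 1.95, n = 1933 cells) in LI/LI, and 8.20% and 9.36% of cells had none. The spread among cells of 1 library was larger than the difference between the libraries, as counting noise at means this low must give. It therefore says nothing of the size of that difference. Among microglia without a UMI of S100a8 or S100a9, a choice made after seeing the data, the log2 ratio was -0.41 over 5428 and 157 cells.

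Outside microglia, Cx3cr1 read as high in WT/WT neutrophils and low in those of LI/LI, but it moved there together with other microglial genes. Granule-rich neutrophils had 631 CPM in WT/WT and 76.3 in LI/LI, and granule-poor neutrophils 744 and 169. In WT/WT these levels were 19.1% and 22.5% of the microglial level, and 9 microglial marker genes (the 6 of the rule with Sall1, P2ry13 and Sparc) lay between 11.2% and 26.5% and between 17.2% and 28.7% of theirs. In LI/LI Cx3cr1 stood at 2.72% and 6.03%, and the markers at 1.99% to 3.10% and 4.57% to 5.94%. Cx3cr1 in neutrophils was thus inside the range of genes that neutrophils should lack, or just above it in granule-poor neutrophils of LI/LI.

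The same was seen cell by cell. Of the 50 granule-rich neutrophils in WT/WT, 36 had under 0.05% of UMIs from the 6 microglial genes, and Cx3cr1 there was 20.0 CPM (6.51 to 46.8), against 1492 in the remaining 14 cells. In LI/LI it was 13.3 in 1542 such cells and 863 in the remaining 89. Granule-poor neutrophils had 64.7 (27.9 to 127) and 18.2 (15.0 to 21.8) once cells at or above that share were left out.

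**Figure D2:**
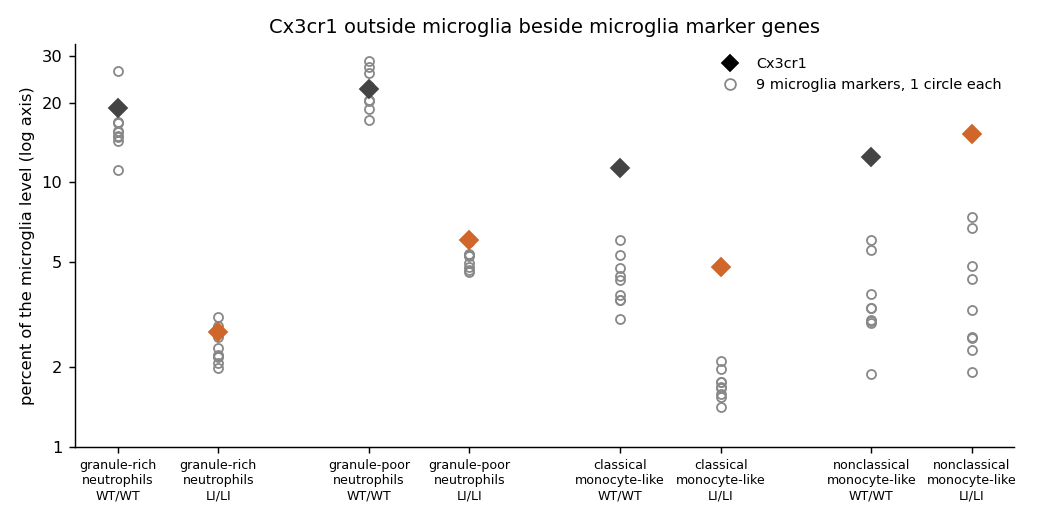
Cx3cr1 (filled diamonds, dark for WT/WT and orange for LI/LI) and 9 microglial marker genes (open circles) are plotted in neutrophils and monocyte-like cells as percent of each gene's level in microglia of the same library (log axis). In neutrophils the diamonds lie within or just above the circles, and in monocyte-like cells they lie above all 9.

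Monocyte-like cells differed from neutrophils in this respect. The other cells were divided by lists of marker genes, a cell joining the list of which it had the most distinct members, at least 3. Nonclassical monocyte-like cells (33 in WT/WT and 39 in LI/LI, with Ace, Treml4 and Cd300e among their genes highest by fold) had 410 (298 to 551) and 428 (318 to 562) CPM of Cx3cr1. These were 12.4% and 15.2% of the microglial level, and each of the 9 microglial markers was lower, at most 6.04% and 7.39%. Classical monocyte-like cells (38 and 1090 cells) had 374 (313 to 443) and 134 (126 to 142), again above all 9 markers, and in cells with under 0.05% microglial UMIs they kept 193 and 89.5.

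Cxcr2, the receptor of mature neutrophils for Cxcl1 and Cxcl2, was scarce elsewhere. In CPM it was nearly equal in the neutrophils of both genotypes, which did not hold under other scaling or cell sets, as given further below. Granule-poor neutrophils had 685 CPM (585 to 798) in WT/WT, from 66 cells, and 673 (654 to 692) in LI/LI, from 1991 cells. Granule-rich neutrophils had 178 (140 to 223) from 50 cells and 171 (165 to 178) from 1631 cells. At least 1 UMI was found in 89.4% and 88.0% of granule-poor neutrophils, whose median depth was 2742 and 2765 UMIs, and in 0.0647% and 1.38% of microglia, which were deeper. In microglia Cxcr2 was 0.136 and 3.92 CPM, and as percent of its level in granule-poor neutrophils (0.0199% and 0.582%) it lay in the range of 9 neutrophil markers measured the same way, whose medians were 0.0322% and 1.42%.

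Ccr1, a receptor for inflammatory CC chemokines, ran close to Cxcr2 in neutrophils. It had 586 CPM (493 to 691) and 564 (547 to 582) in granule-poor neutrophils of WT/WT and LI/LI, and 166 (130 to 210) and 169 (162 to 175) in granule-rich ones. It differed from Cxcr2 in that monocyte-like and macrophage-like cells held it as well. In both libraries granule-poor neutrophils held more of either gene than granule-rich neutrophils did.

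The log2 ratio of granule-poor to granule-rich neutrophils was 1.94 (1.54 to 2.36) for Cxcr2 in WT/WT and 1.97 (1.90 to 2.04) in LI/LI, or 3.85-fold and 3.92-fold. For Ccr1 it was 1.81 (1.39 to 2.25) and 1.74 (1.67 to 1.82). For Cxcr4, the Cxcl12 receptor, it was smaller, at 1.33 (0.18 to 2.53) in WT/WT, from 17 and 12 UMIs, and 0.55 (0.39 to 0.71) in LI/LI. Of all genes tested, 33.3% in WT/WT and 32% in LI/LI were at least 1.5-fold higher in granule-poor neutrophils, with median log2 ratios of 0.28 and 0.25. Scaling by TMM moved these ratios by -0.33 in either library and left Cxcr2, Ccr1 and Cxcr4 higher in granule-poor neutrophils, with an interval that includes 0 for Cxcr4 in WT/WT. Cxcr2 and Ccr1 lay above 96.5% and 95.7% of genes in WT/WT and above 96.5% and 94.8% in LI/LI, next to Csf3r, the receptor for the neutrophil growth factor G-CSF, at 2.66 and 2.53. With cells thinned to 1000 UMIs, Cxcr4 stood at 0.36 in WT/WT, from only 5 granule-poor and 3 granule-rich UMIs, and at 0.69 in LI/LI, from 203 and 103. Its call past 1.5-fold thus changed in either library. As reported, Cxcr4 was past 1.5-fold in WT/WT and not in LI/LI, where 66.4% of genes fell below it, and the difference between those ratios was not tested.

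In finer steps, the larger number of LI/LI neutrophils showed a graded difference in CPM. Cxcr2 was 1000 CPM in the 460 cells without a granule-gene UMI, 661, 612 and 547 in the bins up to 0.1%, 0.3% and 1%, 367 at 1 to 3%, 241 at 3 to 10% and 45.7 (40.7 to 51.2) in the 542 cells at 10% or more. Ccr1 went from 881 down to 69.2 over the same 7 bins, each bin lower than the one before. This gradient belongs to the CPM scale up to a granule-gene share of 3%, since median depth went from 2179 to 4912 UMIs per cell over those 5 bins while Cxcr2 stayed between 2.30 and 2.61 UMIs per cell and Ccr1 between 1.86 and 2.10. Above 3% the counts per cell were lower as well, with 0.561 UMIs of Cxcr2 and 0.849 of Ccr1 per cell in the last bin, at a median depth of 10018. Cxcr4 differed less in CPM, from 113 (93.3 to 135) to 49.2 (44.0 to 54.8), and its neighbouring bins from 0.1 to 3% did not differ beyond their intervals, while its UMIs per cell went the other way, from 0.259 in the first to 0.603 in the last bin. In WT/WT, with 4 wider bins of 17 to 47 cells, Cxcr2 was 707 (582 to 851), 644 (482 to 842), 192 (145 to 250) and 148 (90.5 to 229), with a gap between the first and last pairs of bins larger than their intervals.

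The ratio of Cxcr2 to Cxcr4 UMIs, which does not depend on that scale, was lower at high granule-gene share in LI/LI. It was 8.88 (7.34 to 10.8) in cells without granule-gene UMIs, 4.96 at 1 to 3%, 4.30 at 3 to 10% and 0.930 (0.793 to 1.09) at 10% or more. In WT/WT the ratio was 8.0 (4.57 to 15.1) in 47 cells under 0.1%, 17.7 (5.73 to 88.4) at 0.1 to 1%, 9.33 (4.03 to 26.5) at 1 to 10% and 3.33 (1.29 to 10.1) in 17 cells at 10% or more. These intervals all overlap and show no graded order. These ratios compare counts of 3′ transcript ends, which carry no length term, and are set only against the same ratio in other cells. Granule-rich neutrophils held more UMIs per cell than granule-poor ones (median 7055 against 2765 in LI/LI), so the share of cells with a Cxcr4 UMI, 34.3% against 22.0%, went against the level, and with cells thinned to 1000 UMIs it was 5.89% (4.79 to 7.14) against 9.21% (7.97 to 10.6).

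**Figure D3:**
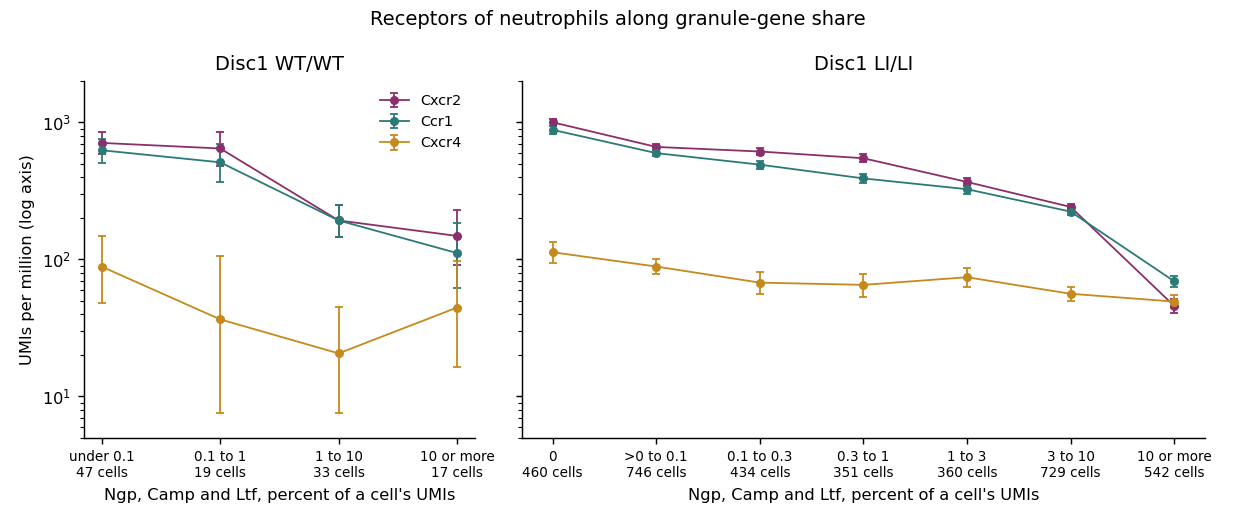
Levels of Cxcr2, Ccr1 and Cxcr4 in CPM (log axis) are plotted in neutrophils grouped by the percent of their UMIs from Ngp, Camp and Ltf, in 4 bins for WT/WT and 7 for LI/LI, with 95% Poisson intervals and the number of cells under each bin. On this scale Cxcr2 and Ccr1 go down toward high granule-gene share in LI/LI, and Cxcr4 goes down less, meeting Cxcr2 at 10% or more.

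Since Cxcr2 and Ccr1 were both lower, in CPM, at high granule-gene share, the 250 bases before their RefSeq start sites (build GRCm38.p6, the same assembly as mm10) are shown with the window of Cx3cr1 as a receptor of another cell class. They are Cxcr2 at chr1:74153744-74153993 on the plus strand, Ccr1 at chr9:123968693-123968942 on the minus strand and Cx3cr1 at chr9:120068297-120068546 on the minus strand, each written 5′ to 3′ in the direction of transcription. Capitals mark matches, on either strand, to GAGGAA (a core bound by the myeloid factor PU.1), TGTGGT (the RUNX core) or TTGCNNAA (a C/EBP site).
Cxcr2: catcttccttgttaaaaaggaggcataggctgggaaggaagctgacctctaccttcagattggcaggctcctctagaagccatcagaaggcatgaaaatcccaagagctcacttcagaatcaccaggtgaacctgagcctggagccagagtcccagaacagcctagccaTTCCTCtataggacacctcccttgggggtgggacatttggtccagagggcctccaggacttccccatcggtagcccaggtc
Ccr1: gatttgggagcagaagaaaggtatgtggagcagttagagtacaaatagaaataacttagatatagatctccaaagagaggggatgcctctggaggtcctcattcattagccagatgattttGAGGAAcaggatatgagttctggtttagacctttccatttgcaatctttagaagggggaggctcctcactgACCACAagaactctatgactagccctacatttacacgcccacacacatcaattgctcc
Cx3cr1: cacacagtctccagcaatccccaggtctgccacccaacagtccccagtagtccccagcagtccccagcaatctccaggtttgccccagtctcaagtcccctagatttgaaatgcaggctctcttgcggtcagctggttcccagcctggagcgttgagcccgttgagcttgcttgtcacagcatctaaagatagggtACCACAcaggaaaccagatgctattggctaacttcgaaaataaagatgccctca
The Cxcr2 window held GAGGAA once, as its reverse complement TTCCTC, 81 bases before the start, and the Ccr1 window held it once, 129 bases before the start. The windows of Cx3cr1, Ccr2 and Cxcr4 held none. Of all 32851 promoter windows of this length, 23.3% held GAGGAA, 14% held TGTGGT and 9.56% held TTGCNNAA. TGTGGT was matched, as ACCACA, in the windows of Ccr1 and Cx3cr1, and no window of the 5 receptors held TTGCNNAA. These matches describe letters and not bound sites.

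Between genotypes, Cxcr2 and Ccr1 levels in neutrophils differed by less than counting error. The log2 ratio of LI/LI to WT/WT for Cxcr2 was -0.06 (-0.39 to 0.29) in granule-rich and -0.03 (-0.25 to 0.21) in granule-poor neutrophils, and for Ccr1 it was 0.02 (-0.32 to 0.38) and -0.05 (-0.30 to 0.20). These values rest on the scaling, because all genes together had median log2 ratios of -0.33 and -0.29 in these classes, and TMM shifted every ratio by 0.56 and 0.57, which put Cxcr2 and Ccr1 in granule-poor neutrophils at 0.55 and 0.52, that is, higher in LI/LI. With neutrophils that carried at least 0.05% microglial UMIs left out, an alternative chosen after seeing the data, they were -0.35 (-0.62 to -0.07) and -0.48 (-0.77 to -0.18), that is, lower in LI/LI. The direction between genotypes was thus not settled by these libraries.

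Cxcr4 in granule-rich neutrophils was 28.1 CPM (14.5 to 49.2) in WT/WT, from 12 UMIs, and 55.7 (52.0 to 59.7) in LI/LI, a log2 ratio of 0.99 (0.17 to 1.94). With cells thinned to 1000 UMIs it was 0.07, from 3 UMIs in WT/WT and 103 in LI/LI, too few in WT/WT to show an effect of depth. In granule-poor neutrophils it was 70.6 (41.1 to 113) and 81.6 (75 to 88.5), which overlapped. Of the 5 receptors, 2 were at least 1.5-fold higher in granule-rich neutrophils of LI/LI (Ccr2 and Cxcr4) and 1 was lower (Cx3cr1), where 10% of genes were higher and 38% lower. In granule-poor neutrophils 1 was higher (Ccr2) and 1 lower (Cx3cr1), where 11% of genes were higher and 37% lower.

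Ccr2 was not counted at all in WT/WT neutrophils, with a UMI in 0 of 116 cells. The 3-count limit on cells with a Ccr2 UMI is 2.59%, which says nothing of cells that express it below detection. In LI/LI it had 644 UMIs in 4.47% of 3622 neutrophils, or 24.9 CPM in granule-rich and 40.1 in granule-poor cells. Against 3 UMIs per class in WT/WT these are at least 3.53-fold and 3.22-fold higher. They were 2.69% and 4.33% of the level in classical monocyte-like cells of LI/LI, where 5 markers of classical monocytes had medians of 3.16% and 4.96%, and classical monocyte-like cells made up 13.9% of all cells in LI/LI and 0.540% in WT/WT. Ccr2 in neutrophils was thus no higher than the median of those monocyte markers in the same barcodes.

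Ccr2, which classical monocytes need to leave the marrow, belonged to the other cells, with 298 CPM (280 to 316) in WT/WT and 594 (583 to 606) in LI/LI. The make-up of the class differed as well. Classical monocyte-like cells were 5.16% of the other cells in WT/WT and 48.6% in LI/LI, and within them Ccr2 was 1161 (1051 to 1278) and 925 (905 to 946), the lower value in LI/LI, with a log2 ratio of -0.33 (-0.47 to -0.18). This and the other ratios between genotypes within marker groups rest on scaling by total UMIs. No all-gene median or TMM shift was computed within a group. Over the other cells as a whole the all-gene median was -0.33 and the TMM shift 0.48. Nearly all classical monocyte-like cells held Ccr2, 97.4% and 97.2%. Border macrophage-like cells, with Cd209f, Folr2 and Lyve1 among their genes highest by fold, had 0 UMIs of Ccr2 in 88 and 16 cells.

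Other groups held Ccr2 at lower levels. Cells with the most genes of the MHC class II list had 420 (384 to 458) in WT/WT and 500.5 (472 to 531) in LI/LI, but these groups were unlike and are not compared. Their genes highest by fold included dendritic cell genes such as Xcr1 and Clec9a in WT/WT and immunoglobulin genes such as Ighv1-26 in LI/LI. NK-like cells had 125 (57.3 to 238) from 17 cells and 331 (262 to 412) from 62 cells. T-like cells had 133 and 125, which did not differ beyond their intervals. Nonclassical monocyte-like cells were low, at 18.6 (2.26 to 67.3) and 50.3 (18.5 to 109), below classical monocyte-like cells in both libraries. Their Cx3cr1 was above that of classical monocyte-like cells in LI/LI, and in WT/WT the intervals of both groups overlapped.

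Ccr1 was present in classical monocyte-like cells at 185 (143 to 236) and 249 (239 to 260) CPM, and in border macrophage-like cells at 187 (143 to 241) and 319 (186 to 511). It had 0 UMIs in nonclassical monocyte-like and in NK-like cells of both libraries, which allows up to 28 and 25.2 CPM for the former. Within classical monocyte-like cells its log2 ratio was 0.42 (0.07 to 0.80), against 0.91 over all other cells.

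Cxcr4 was most abundant in nonclassical monocyte-like cells, at 214 (136 to 322) and 184 (116 to 279) CPM, with intervals that overlapped in WT/WT those of classical monocyte-like cells at 149 (112 to 195) and of 5 cells with granulocyte-monocyte progenitor genes at 163 (102 to 246). In LI/LI classical monocyte-like cells had 74.3 (68.7 to 80.3), a log2 ratio of -1.0 (-1.41 to -0.57). This is the reverse of the ratio over all other cells, 0.48 (0.26 to 0.71), which turned to -0.23 when cells with at least 0.05% microglial UMIs were left out, a choice made after seeing the data. In LI/LI the cells of that progenitor list had 82.5 (72.2 to 93.8), with a Cxcr4 UMI in 77.4% of 106 cells of median depth 27052 UMIs. Their genes highest by fold were headed by Upk3bl, Tctex1d1 and Scin. Lower among these came Cpa3, Mcpt8 and Prg3, genes of basophils, mast cells and eosinophils. All 5 genes of the progenitor list were detected in these cells, but none was among those highest by fold.

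**Figure D4:**
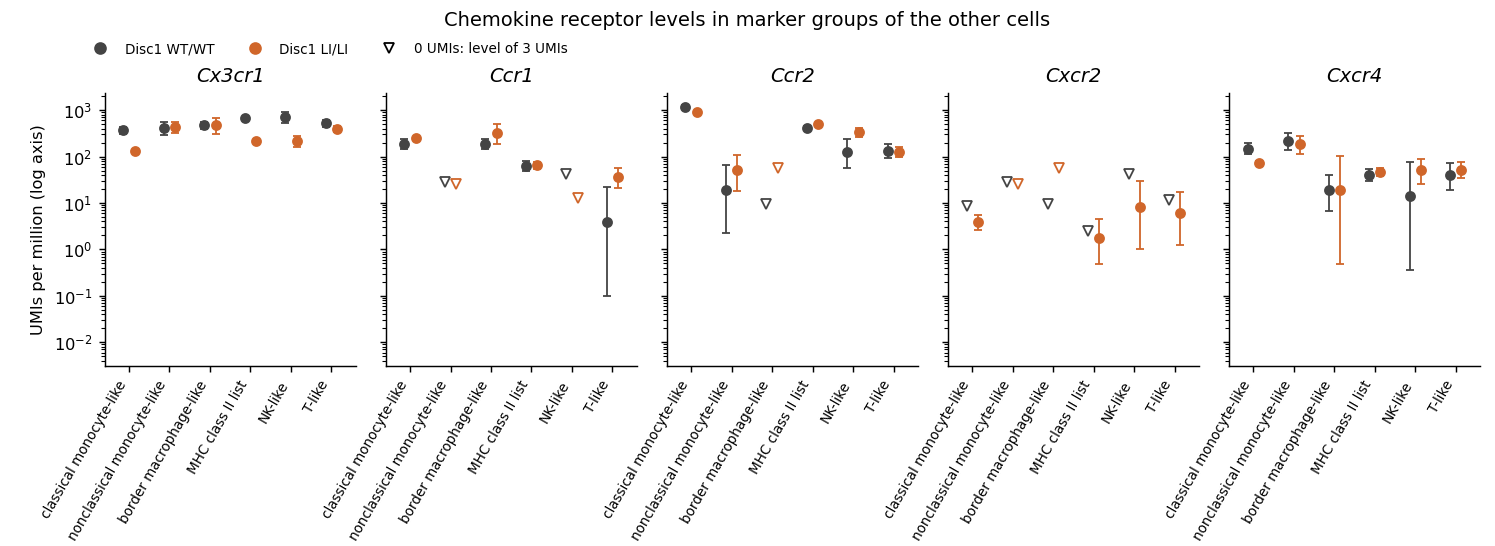
Receptor levels in CPM (log axis) are plotted in 6 marker groups of the other cells, with 1 point per library, bars for the 95% Poisson interval and open triangles at the level of 3 UMIs where none was counted. Ccr2 peaks in classical monocyte-like cells, Cxcr4 in nonclassical monocyte-like cells, and Cxcr2 stays under 10 CPM wherever it was counted.

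In the other cells as a whole, 2 of the 5 receptors were at least 1.5-fold higher in LI/LI (Ccr1 and Ccr2) and 1 was lower (Cx3cr1), where 13.4% of genes were higher and 39.2% lower. The median log2 ratio of all genes was -0.33 there, and TMM moved each ratio by 0.48. The Ccr2 call was lost without cells carrying microglial UMIs, at a log2 ratio of 0.43, and the ratio was 2.34 with stricter classes. In microglia 3 were higher (Ccr2, Cxcr2 and Cxcr4) and none lower, where 4.75% of genes were higher and 19.4% lower. Each of those 3 was rare in microglia, with 13.5, 3.92 and 2.81 CPM in LI/LI against 7.11, 0.136 and 1.23. With cells thinned to 1000 UMIs the log2 ratios of Ccr2 and Cxcr4 were 0.45 and 0.48, under 1.5-fold. These rest on 39 UMIs of Ccr2 in WT/WT and 17 in LI/LI, and on only 9 and 4 of Cxcr4. Ccr2 was 0.16 with stricter classes and 0.51 without the deepest 5% of cells. Ccr2 and Cxcr2 in LI/LI microglia stood at 1.46% and 0.582% of their levels in classical monocyte-like cells and in granule-poor neutrophils. The markers of those cells ranged from 1.00% to 5.92% (median 1.81%) and from 0.275% to 25% (median 1.42%). Ms4a6c and Csf3r set the tops of these ranges, and Csf3r was at 143 and 123 CPM in WT/WT and LI/LI microglia. A place within ranges this wide does not show where the UMIs came from. Cxcr2 in LI/LI microglia was no lower where S100 RNA was missing, as it was 12.2 CPM (4.48 to 26.6, from 6 UMIs) in the 157 cells without a UMI of S100a8 or S100a9 and 3.39 (2.21 to 4.96) in those with one. The part of neutrophil RNA in it was not tested.

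Ccr1 in microglia was nearly equal in both libraries. It was 13.7 CPM (12.4 to 15.1) in WT/WT and 14.1 (11.6 to 16.9) in LI/LI, or 2.34% and 2.49% of the granule-poor neutrophil level, while the neutrophil markers had medians of 0.0322% and 1.42% there. In microglia without a UMI of S100a8 or S100a9 the log2 ratio was 0.66, from 357 and 11 UMIs. Microglia with a Ccr1 UMI were 3.71% and 3.59% of the class, at median depths of 4271 and 3788 UMIs. Among NK-like cells, which should lack it, none of 17 and 62 cells had a UMI, at 3384 and 3564 UMIs. The 3-count limits there, 17.6% and 4.84% of cells, lie above the microglial shares, so so few cells cannot tell such a share from none. Of T-like cells 2.04% and 9.88% had a Ccr1 UMI. In cells of the B cell list it was 1 of 8 and 9 of 110 cells. Some genes of other myeloid cells were counted in a larger share of Ccr1+ microglia, as a description with no test. The neutrophil gene S100a8 was not in WT/WT, at 5.68% against 6.23% of microglia without a Ccr1 UMI (Ccr1-), and had 80% against 70.7% in LI/LI. Csf3r differed little, at 47.6% against 45.3% and 37.1% against 36.8%. Mrc1, a gene of border macrophages, had a UMI in 22.7% against 5.07% of Ccr1- microglia in WT/WT and 14.3% against 3.14% in LI/LI. The antigen presentation gene Cd74 had 24.5% against 13.7% and 30% against 19.6%, and the monocyte gene Ms4a6c 41.5% against 24.6% and 35.7% against 27.6%. In LI/LI Il1b (17.1% against 8.51%) and Ly6c2 (15.7% against 6.65%) showed the same order. Microglia with a Ccr2 UMI showed this order as well, so it was not particular to Ccr1. There Ms4a6c had 45.3% against 24.8% in WT/WT and 51.7% against 27.1% in LI/LI, and Cd74 25.8% against 13.9% and 46.6% against 19.1%. The median depth of Ccr1+ microglia was somewhat higher, 4726 against 4257 and 4078 against 3764 UMIs, and its part in this was not tested.

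Whole libraries differed in the receptors as well as in the numbers of each class. Taken as CPM over all cells, the log2 ratio of LI/LI to WT/WT was -2.34 for Cx3cr1, 2.86 for Ccr1, 2.67 for Ccr2, 4.29 for Cxcr2 and 2.93 for Cxcr4. Microglia gave 97.3% of Cx3cr1 UMIs in WT/WT and 81.9% in LI/LI, and neutrophils gave 90.9% and 98.1% of Cxcr2 UMIs. The other cells gave 83.4% and 93.4% of Ccr2. The source of the remaining receptors changed, as neutrophils gave 23.7% of Ccr1 UMIs in WT/WT and 69.9% in LI/LI, microglia 45.0% and 1.25%, and as neutrophils gave 11.4% and 50.3% of Cxcr4 UMIs.

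**Figure D5:**
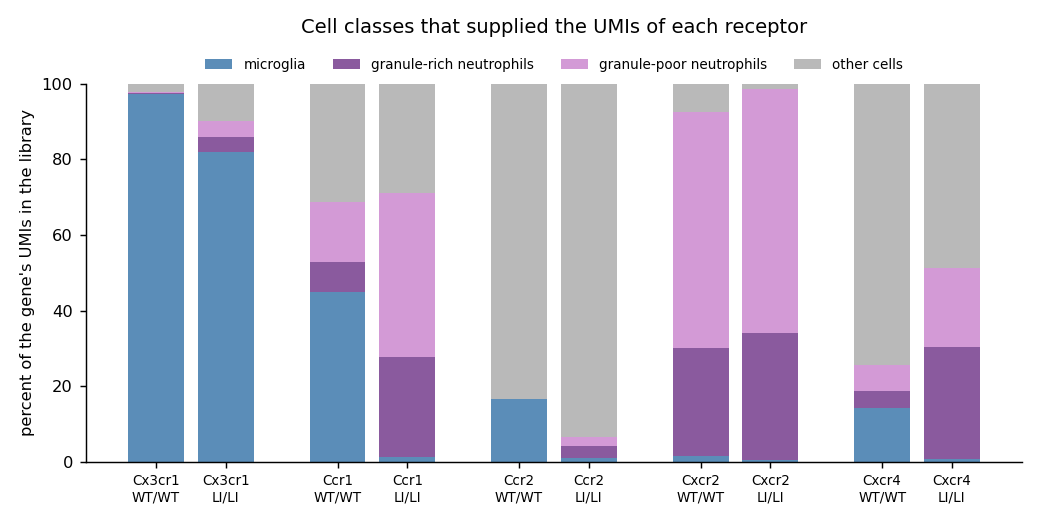
Stacked bars give, for each receptor and library, the percent of its UMIs that came from each of the 4 cell classes. Microglia supply most Cx3cr1 (97.3% in WT/WT and 81.9% in LI/LI) and neutrophils most Cxcr2 (90.9% and 98.1%). The main source of Ccr1 passes from microglia in WT/WT (45.0%) to neutrophils in LI/LI (69.9%).

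The wider receptor family was sparse in these cells. Of 19 further chemokine receptor genes, 7 reached 20 UMIs in microglia, 2 in granule-rich neutrophils, 3 in granule-poor neutrophils and 11 in other cells. In microglia 1 of these 7, Ccr7, was past 1.5-fold higher in LI/LI, from 4 and 16 UMIs, and none was lower by that fold, beside 4.75% and 19.4% of all genes. In granule-poor neutrophils Ccrl2, an atypical receptor that does not signal by itself, led with 95.5 and 157. In the other cells 2 of 11 were higher and 7 lower, beside 13.4% and 39.2% of all genes, among them Cxcr6 (41.3 and 4.74), a receptor of resident T cells, and Xcr1 (17.0 and 2.29), of cross-presenting dendritic cells.

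Of the ligands of the 5 receptors, Cxcl2 differed most in microglia. Of 12 measured there, 6 were at least 1.5-fold higher in LI/LI and 2 lower, beside 4.75% and 19.4% of all genes. The Cxcr2 ligand Cxcl2 went from 4.42 to 44.8 CPM in microglia, a log2 ratio of 3.34 (3.05 to 3.64), beside 5529 and 8174 in granule-poor neutrophils, whose RNA was also more common in LI/LI microglia. Ccl4 went from 117 to 267 in microglia and Ccl5 from 12.7 to 34.9. The Ccr2 ligand Ccl7 and the chemokine Ccl8 were lower in microglia, at 5.55 and 1.10 and at 4.29 and 0.979, and in the other cells Ccl7 was 98.1 and 2.17, where border macrophage-like cells were 12% and 0.713% of that class. For ligands the counts of higher and lower genes were 5 and 2 of 10 in granule-rich neutrophils (10% and 38% of all genes), 2 and 3 of 11 in granule-poor neutrophils (11% and 37%) and 4 and 6 of 12 in the other cells (13.4% and 39.2%).

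Of 27 genes of receptor signalling measured in microglia, 2 were higher and 2 lower, where 4.75% of all genes were higher and 19.4% lower. The higher were Rgs18, a brake on G proteins, and the kinase Fgr, and the lower Elmo1 and Dock2, which together activate Rac. The median log2 ratio was -0.13 beside -0.19 for all genes. Rgs18 went from 1.12 to 2.20 CPM in microglia, beside 178 and 139 in granule-rich neutrophils. Fgr went from 2.65 to 5.38, beside 58.6 and 71.1. Neutrophil RNA was also more common in LI/LI microglia, and its part in these 2 genes was not tested. Elmo1 was 443 CPM in WT/WT and 266 in LI/LI microglia, a log2 ratio of -0.73 (-0.80 to -0.67). In granule-rich neutrophils 8 of 27 were lower and none higher, where 38% of all genes were lower and 10% higher, with a median of -0.38 beside -0.33 for all genes. In granule-poor neutrophils 4 of 26 were lower, led by Prex1, a Rac activator downstream of G proteins, at 174 and 79.2, and 1 was higher, where 37% and 11% of all genes were, and in the other cells 8 of 27 were lower and 5 higher, where 39.2% and 13.4% were. These shares of lower genes lie below those of all genes and are no result about signalling.

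The genes most like each receptor were sought over 14 class and marker-group profiles of at least 50 cells, by Pearson's r of log2(CPM + 1) among 5450 genes. The profiles share libraries and their depth, so these values describe likeness only. Cx3cr1 was closest to Arhgap5 (0.986), Inpp5d (0.982) and Ski (0.981), and Cxcr2 to Arg2 (0.983), Asprv1 (0.979) and Retnlg (0.971). Ccr2 was closest to S100a4 (0.949), Itgb7 (0.936) and 1700025G04Rik (0.923), Ccr1 to Ehd1 (0.940), Pstpip2 (0.933) and Ier3 (0.929), and Cxcr4 to Pfkp (0.917), Cytip (0.916) and Arhgap15 (0.912).

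In the genome Cxcr2 lies on chromosome 1 from 74153989 to 74161246 (plus strand) and Cxcr4 from 128588199 to 128592293 (minus strand), and Cx3cr1 (119901616 to 120069879, minus), Ccr1 (123962124 to 123968692, minus) and Ccr2 (124101950 to 124113557, plus) lie on chromosome 9 (GENCODE vM21, mm10). Cx3cr1 overlaps 9 other genes in this annotation, 3 of them on its own strand, and the other 4 receptors overlap none. Of the distinct 50-base stretches of their transcripts, 4.01% for Cxcr2, 1.91% for Ccr2, 0.269% for Cx3cr1 and none for Ccr1 and Cxcr4 also occur in transcripts of other genes, and no receptor shared such a stretch with another of the 5.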

How the data were processed

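Single cells of 1 library per genotype were analysed from the count matrices that the authors deposited, in which each value is the number of UMIs of a gene in a cell barcode. The matrix headers name Cell Ranger 6.1.2, and the submitters' notes name STAR, the mouse build mm10 and Seurat 3.0.1. Library chips were of more than 1 kind, and which library used which is not given in the sources used here. From the counts, cells were filtered and classed as stated above, doublets were not removed, and UMIs were summed per class. After filtering, 33591758 UMIs remained for WT/WT and 47689834 for LI/LI. Levels have exact Poisson intervals, shares exact binomial (Clopper-Pearson) intervals, and log2 ratios an interval from the exact binomial split of the UMIs, all covering counting error only. No p-values were computed. Genes with at least 20 UMIs over both libraries were called past 1.5-fold, and a count of 0 was bounded by 3 UMIs. Of these steps, only the log2 ratios with their intervals and the 1.5-fold cut were tried on simulated data, as Poisson counts for microglia.

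The 5 receptors, the class rules and the lists of 19 receptors, 17 ligands and 27 signalling genes were chosen with earlier results of these data known. List genes were named where they had the 3 highest or lowest ratios or the highest level of their list in a class. Some genes that this rule names are not reported here. Cells near a cut were not few, as 303 other cells of WT/WT and 217 of LI/LI had 0.2 to 0.5% microglial UMIs. Alternatives covered cell filters, class cuts, depth, hemoglobin and scaling by TMM (edgeR 4.0.16). Analyses ran in Python 3.11.15 with scipy 1.17.1.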

Additional observations from a re-analysis of the deposited data

How the results depend on the processing

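Of 846 values recomputed under alternatives, 607 stayed within the counting interval of the reported value or within 1.5 times a reported count, 238 moved beyond it and 1 reversed. Restricted cell sets were added after seeing the data, neutrophils and other cells under 0.05% microglial UMIs and microglia without a UMI of S100a8 or S100a9. The log2 ratio of LI/LI to WT/WT for Cx3cr1 in microglia was -0.18 with stricter classes, -0.20 as a mean over cells, -0.19 with cells thinned to 1000 UMIs, -0.10 under TMM and -0.41 in microglia without S100 UMIs. In granule-poor neutrophils Ccr1 was 0.45 when thinned, 0.52 under TMM and -0.48 without cells carrying microglial UMIs, and Cxcr2 was 0.55 under TMM and -0.35 without those cells. In other cells Ccr2 was 2.34 with stricter classes, 1.30 without the 5% of cells with the most UMIs, 1.59 as a mean over cells, 1.61 when thinned, 1.48 under TMM and 0.43 without cells carrying microglial UMIs, and Cxcr4 was 1.84, 0.72 and 0.96 with stricter classes, without the deepest cells and under TMM, and reversed to -0.23 (-0.50 to 0.05) without cells carrying microglial UMIs. The ratio of granule-poor to granule-rich neutrophils for Cxcr2 was 2.37 in WT/WT with the split at 3%, and in LI/LI 2.13 with stricter classes, 2.06 without the deepest cells, 1.77 as a mean over cells, 1.82 when thinned, 1.64 under TMM, 1.76 with the split at 0.3% and 2.15 at 3%. For Cxcr4 in LI/LI it was 0.77 as a mean over cells and 0.22 under TMM. Counting receptor, ligand and signalling genes past 2-fold in place of 1.5-fold gave 9 in place of 16 in microglia, 10 in place of 20 in granule-rich neutrophils and 23 in place of 35 in other cells, as a larger fold must give fewer. Apart from that, the cause was not tested. Few cells limit the WT/WT neutrophil values, with 50 granule-rich and 66 granule-poor cells. No paired analysis was possible because each genotype has 1 library, and for the same reason no replicate could be left out.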
